A study of Mus musculus with 8 samples.

Results

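The cyclin-dependent kinase (Cdk) inhibitors and the retinoblastoma (Rb) family set the brake on the entry of cells into S phase. The genes of these proteins are described here across RNA-seq libraries of mouse hematopoietic progenitors with and without *Pcgf1*, which encodes a subunit of a variant Polycomb repressive complex 1 (PRC1). They were chosen by name, 10 of the 23284 gene symbols in the expression tables, and comprise the CIP/KIP inhibitors *Cdkn1a*, *Cdkn1b* and *Cdkn1c*, the INK4 inhibitors *Cdkn2a*, *Cdkn2b*, *Cdkn2c* and *Cdkn2d*, and *Rb1*, *Rbl1* and *Rbl2*. Each cell type, IdHPCs and LMPPs, has 2 libraries labelled Pcgf1 fl/fl (control) and 2 labelled Pcgf1 -/- (*Pcgf1*-KO), 8 libraries in all. IdHPCs are bone marrow progenitors immortalized in culture with Id3 and grown on TSt-4 stromal feeder cells, and LMPPs are lymphoid-primed multipotent progenitors from bone marrow. The deletion is induced by 4-hydroxytamoxifen (4-OHT) through ERT2-Cre in *Pcgf1*-KO cells. LMPP controls are described as cells of Pcgf1 fl/fl mice, with no ERT2-Cre named, and were treated with 4-OHT as well. Between the labelled LMPP groups, Cre activity and the deletion therefore cannot be told apart. Control IdHPCs are described as ERT2-Cre:Pcgf1 fl/fl cells given ethanol in another experiment of the study, and their treatment for RNA-seq is not stated. Mice were females aged 6 to 8 weeks, as stated for the study's animals in general, and the labels give the strain B6CBAF1/J, passage 15 to 18 and culture on stroma with IL7, SCF and Flt3 ligand for all 8 libraries. RNA-seq replicates are described by the study as biologically independent, without saying for each library which mouse or culture it came from, and the p-values measure the spread between these libraries.

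CIP/KIP proteins bind complexes of cyclins with Cdks and, among them, inhibit Cdk2, whereas INK4 proteins bind Cdk4 and Cdk6 and keep them from D-type cyclins. Active Cdks phosphorylate the Rb family proteins, which otherwise hold E2F transcription factors and repress the genes of DNA replication. In blood progenitors these inhibitors are known for holding stem cells in quiescence, and the *Cdkn2a* locus is a classical target of Polycomb repression. The study counts *Cdkn2a* among the genes bound by PCGF1 and RING1B that carry H3K27me3, and *Cdkn2c* and *Rb1* among the bound genes without this mark. By ChIP-qPCR it also reports less H3K27me3 at *Ink4a* in *Pcgf1*-KO IdHPCs, and it describes a modest decrease in the proliferation of these cells.

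*Cdkn2a* is a single symbol for a pair of unrelated proteins, and its first exons are shown because they alone tell the transcripts apart. Transcripts that start at exon 1α encode p16Ink4a, an INK4 inhibitor. Those that start at exon 1β, upstream, encode p19Arf, which is read from exon 2 in another frame and stabilizes p53 by binding Mdm2. The coding parts of both exons, on the minus strand of chromosome 4 of NCBIM37 (mm9, the build of the data), lie at chr4:88927890-88928015 and chr4:88940238-88940427, with the start codon in capitals.
Exon 1α: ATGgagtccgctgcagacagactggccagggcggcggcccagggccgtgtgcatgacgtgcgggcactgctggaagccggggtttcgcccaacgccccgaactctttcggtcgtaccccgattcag
Exon 1β: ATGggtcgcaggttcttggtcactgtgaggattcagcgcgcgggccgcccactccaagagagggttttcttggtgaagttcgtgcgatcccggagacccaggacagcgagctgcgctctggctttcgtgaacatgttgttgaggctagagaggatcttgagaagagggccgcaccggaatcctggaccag

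The sequences before their start sites differ in base composition, shown here because PRC1 with PCGF1 is recruited by KDM2B, a protein that binds unmethylated CpG. The 250 bases before each start come from RefSeq on GRCm38.p6, minus strand, at chr4:89282193-89282442 for exon 1α and chr4:89294620-89294869 for exon 1β, with each CG in capitals. The RefSeq start of exon 1β lies 34 bases inside the exon as annotated on mm9, so that the last 34 bases of its stretch belong to the exon counted here, whereas the starts of exon 1α coincide. The letters CG read the same on both strands.
Before exon 1α: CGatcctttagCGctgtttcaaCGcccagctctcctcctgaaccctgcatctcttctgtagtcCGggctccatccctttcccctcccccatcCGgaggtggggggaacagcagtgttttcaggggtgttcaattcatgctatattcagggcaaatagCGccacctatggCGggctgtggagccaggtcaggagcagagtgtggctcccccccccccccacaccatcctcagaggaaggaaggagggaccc
Before exon 1β: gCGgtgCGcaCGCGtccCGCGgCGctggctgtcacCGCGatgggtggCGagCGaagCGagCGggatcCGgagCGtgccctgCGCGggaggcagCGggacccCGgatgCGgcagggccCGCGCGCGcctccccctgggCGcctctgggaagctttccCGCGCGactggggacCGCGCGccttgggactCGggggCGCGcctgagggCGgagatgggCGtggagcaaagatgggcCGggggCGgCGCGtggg
The stretch before exon 1β held 40 CG, a number that 1.31% of the 32851 promoters of this length in the table reach. The stretch before exon 1α held 7 CG, which 46.3% of promoters reach, and the median promoter held 6. This contrast holds only for the bases before the starts. The coding parts printed above held 13 CG in 126 bases for exon 1α and 13 CG in 190 bases for exon 1β. Binding at either start was not tested here.

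Values are CPM, reads on an exon scaled to the total of the library, summed over the distinct exons of a symbol, and each library held between 9618849 and 25302206 reads on distinct exons. *Pcgf1*, the targeted gene, had 193 and 173 reads on its exons 2 to 7 in control IdHPCs and 15 reads in each *Pcgf1*-KO IdHPC library. In LMPPs these exons held 84 reads in labelled control 1 and 76 in labelled *Pcgf1*-KO 1. They held 0 in each of labelled control 2 and *Pcgf1*-KO 2, where 0 allows up to 3 reads. The reads thus went against the labels of control 2 and *Pcgf1*-KO 1. LMPP groups are therefore given as labelled, and the libraries are also described singly. Progenitor genes were present in both cell types, with *Flt3* between 366 and 631 CPM and *Kit* between 29.6 and 384 CPM over the 8 libraries. Stromal markers summed to between 3390 and 3959 CPM in control IdHPCs and between 6366 and 7966 CPM in *Pcgf1*-KO IdHPCs, with 18 of 20 markers read and *Dcn* and *Lum* at 0, against 43.6 to 67.0 CPM in LMPPs. Stromal marker RNA was thus read in IdHPC libraries, and in such bulk samples a change in the number of cells of a type and a change in RNA per cell cannot be told apart. *Pcgf1*-KO 2 IdHPCs also stood apart by read position, with 27.1% of reads on the most 3′ exon over 6560 well covered genes, against 21.7% to 23.4% in the other 3 libraries.

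**Figure D1:**
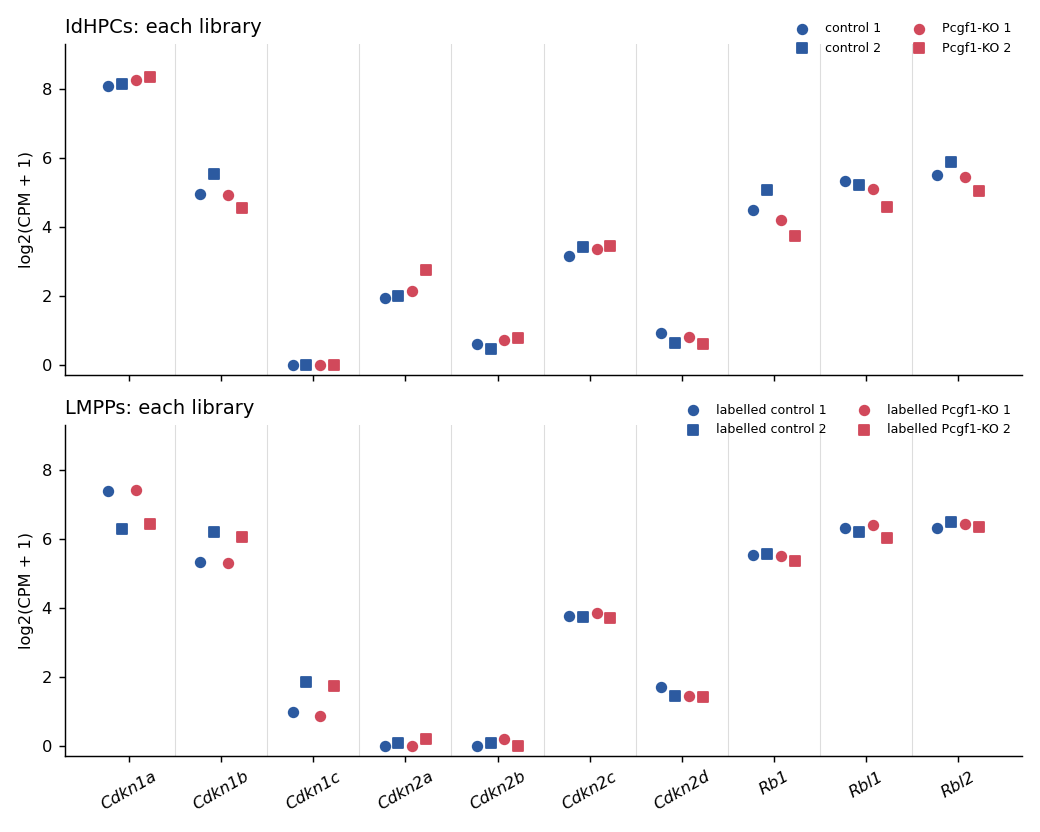
Level of each of the 10 genes in each library, as log2(CPM + 1) on the vertical axis, with IdHPCs above and LMPPs below. Blue points are control and red points *Pcgf1*-KO libraries as labelled, circles are replicate 1 and squares replicate 2. In LMPPs the circles and the squares, rather than the colors, separate for *Cdkn1a*, *Cdkn1b* and *Cdkn1c*.

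Levels of different genes were compared per kb of exon, as CPM per kb. *Cdkn1a* was the highest of the 10 genes in both cell types, with a median over the 4 libraries of 132 CPM per kb in IdHPCs and 57.1 CPM per kb in LMPPs. In IdHPCs the next were *Cdkn1b* (12.3), *Rbl2* (8.80), *Cdkn2c* (8.52), *Rbl1* (5.77), *Rb1* (4.14) and *Cdkn2a* (2.72 CPM per kb). Among these, the ranges of the libraries overlapped between neighbors in the order, except between *Cdkn2c*, with a lowest level of 7.14, and *Rbl1*, with a highest level of 6.48 CPM per kb. *Cdkn2d* and *Cdkn2b* stayed below 0.70 and 0.51 CPM per kb, with overlapping ranges, and *Cdkn1c* had 0 reads in each IdHPC library. In LMPPs *Cdkn1b* (22.0) and *Rbl2* (16.7), which overlapped, were followed by *Rbl1* (12.7) and *Cdkn2c* (11.3), which overlapped too. *Rb1* (9.70 CPM per kb) lay apart from its neighbors in LMPPs. *Cdkn2d* and *Cdkn1c* had medians of 1.35 and 0.86 CPM per kb with overlapping ranges, and *Cdkn2a* and *Cdkn2b* had at most 2 reads in any LMPP library. The 2 tables were normalized separately, so that levels in IdHPCs and LMPPs stand only side by side.

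The comparison of *Pcgf1*-KO with control IdHPCs asks whether loss of PCGF1 changes these brakes on the cell cycle. None of the 7 genes tested was called. In IdHPCs 7 of the 10 genes passed the filter, which asks for a CPM of at least 1 in any library, each of them in all 4, and 0 of the 7 passed an adjusted p of 0.05 (limma, p-values adjusted over 12273 genes by the Benjamini-Hochberg method). Limma called 0.53% of all genes tested, 0.269% higher and 0.261% lower in *Pcgf1*-KO. The deleted gene *Pcgf1* was not called in this comparison either, at 8.14 and 7.22 CPM in controls and 2.49 and 3.91 CPM in *Pcgf1*-KO. The lack of a call therefore does not show that a gene is unchanged. At an unadjusted p under 0.05 limma gave 1 of the 7, *Rb1*, beside 14.5% of all genes tested, and edgeR's quasi-likelihood test, edgeR's exactTest and DESeq2 called 0 of the 7 after adjustment. The median log2 fold change of the 7 genes was -0.44, beside 0.01 over all genes tested. In 2 of the 7 both *Pcgf1*-KO libraries lay above both controls, as in 25.6% of all genes tested, and in 4 of the 7 both lay below, as in 21.3% of all genes tested.

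**Figure D2:**
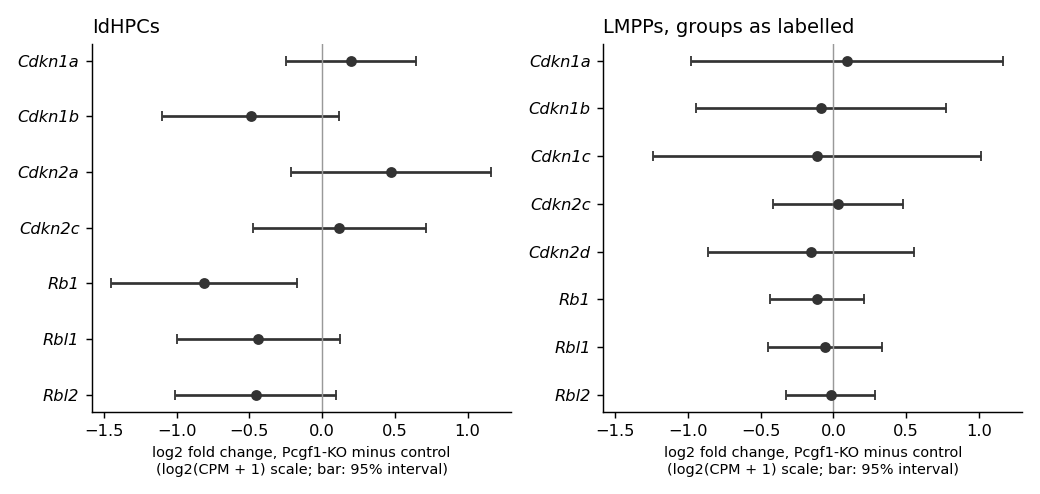
Log2 fold change (*Pcgf1*-KO minus control, on the log2(CPM + 1) scale) of the genes that passed the filter, with 7 genes in IdHPCs at the left and 8 in LMPPs, by label, at the right. Points are limma estimates from 2 against 2 libraries and bars are 95% intervals without adjustment; the interval of *Rb1* in IdHPCs, -1.45 to -0.17, is the only one that does not include 0.

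Of the CIP/KIP genes, *Cdkn1a* encodes p21, a classical target of p53. It had 269 and 280 CPM in control IdHPCs and 307 and 323 CPM in *Pcgf1*-KO IdHPCs. The groups did not overlap, but the log2 fold change of 0.20 (standard error, SE, 0.20, 95% interval -0.25 to 0.64, limma, adjusted p = 0.686) did not pass the test. It was 0.02 without the last exon and 0.28 on the last exon alone, and on exons 2 and 3 *Pcgf1*-KO 2 (22.7 and 70.2 CPM) lay below both controls (31.9 and 76.2 CPM in control 1, 33.7 and 75.4 CPM in control 2). *Cdkn1b* encodes p27, which accumulates in resting cells. It stood at 29.6 and 45.4 CPM in controls 1 and 2, and at 29.5 and 22.5 CPM in *Pcgf1*-KO 1 and 2, so that control 1 and *Pcgf1*-KO 1 nearly coincided. Its log2 fold change was -0.49 (SE 0.27, limma, adjusted p = 0.447) and was -0.19 without control 2, -0.79 without control 1 and -0.30 without *Pcgf1*-KO 2. *Cdkn1c*, the imprinted gene of p57, was not detectable at this depth, where the floor of 3 reads was worth between 0.086 and 0.141 CPM.

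Of the INK4 genes, *Cdkn2a* had 2.85 and 2.95 CPM in control IdHPCs and 3.41 and 5.65 CPM in *Pcgf1*-KO IdHPCs (93, 103, 97 and 120 reads). *Pcgf1*-KO 2 was the highest and the other 3 libraries lay close together. The log2 fold change of 0.47 (SE 0.31, 95% interval -0.21 to 1.16, limma, adjusted p = 0.512) did not pass the test. It was 0.18 without *Pcgf1*-KO 2 and 0.77 without *Pcgf1*-KO 1. *Cdkn2b*, the gene of p15 next to *Cdkn2a* at chr4:88952198-88956941, stayed under the filter at 0.520 and 0.373 CPM in controls 1 and 2 against 0.632 and 0.706 CPM in *Pcgf1*-KO 1 and 2. These values rest on 17, 13, 18 and 15 reads. Both *Pcgf1*-KO libraries lay above both controls only on the last exon of *Cdkn2b* (8, 10, 13 and 14 reads in the same order). On its first exon (9, 3, 5 and 1 reads) the groups overlapped. *Cdkn2c*, the gene of p18, stood at 7.90 and 9.57 CPM in controls 1 and 2, and at 9.27 and 9.79 CPM in *Pcgf1*-KO 1 and 2. Its groups overlapped, with a log2 fold change of 0.12 (SE 0.27, limma, adjusted p = 0.871). *Cdkn2d*, the gene of p19Ink4d, stood at 0.888 and 0.544 CPM in controls 1 and 2, and at 0.737 and 0.518 CPM in *Pcgf1*-KO 1 and 2, under the filter. The symbol has 4 distinct exons at separate places in the table, those of the gene on chromosome 9 and of a near-identical copy, and the counting could have split or dropped reads between them, so the level of *Cdkn2d* is uncertain. Beside the higher values of *Cdkn1a*, *Cdkn2a* and *Cdkn2b*, stromal markers were higher in the same libraries (17 of 18 tested in both *Pcgf1*-KO libraries and 18 by the group difference, 2 called by limma, *Col1a2* and *Sparc*, median log2 fold change 0.97). The part of feeder RNA in the level of these genes was not tested.

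The first exons of *Cdkn2a* tell its transcripts apart, whereas reads on exons 2 and 3 can come from either. Exon 1β (chr4:88940238-88940557), which only *Arf* transcripts hold, had 30 and 39 reads in control IdHPCs and 42 and 49 reads in *Pcgf1*-KO IdHPCs, or 0.919, 1.12, 1.47 and 2.31 CPM. Both *Pcgf1*-KO libraries lay above both controls on this exon, as on 14.5% of all exons with reads in the genes tested. Exon 1α (chr4:88927890-88928096), which only *Ink4a* transcripts hold, had 0 reads in each of the 8 libraries. Of the reads on both first exons, the share of exon 1α was 0%, with Wilson 95% upper bounds of 11.4% and 8.97% in the controls and 8.38% and 7.27% in the *Pcgf1*-KO libraries. A floor of 3 reads allows 10%, 7.69%, 7.14% and 6.12%. Reads of exon 1α, whose letters are printed above, were thus not detectable at this depth with or without *Pcgf1*. Exon 2, shared by both transcripts, stood at 1.59 and 1.38 CPM in controls 1 and 2, and at 1.44 and 2.16 CPM in *Pcgf1*-KO 1 and 2, and here the groups overlapped. Exon 3 stood at 0.337 and 0.458 CPM in controls 1 and 2, and at 0.492 and 1.18 CPM in *Pcgf1*-KO 1 and 2. These intervals and floors cover counting error only, since the reads carry no molecular identifiers and need not come from separate molecules.

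**Figure D3:**
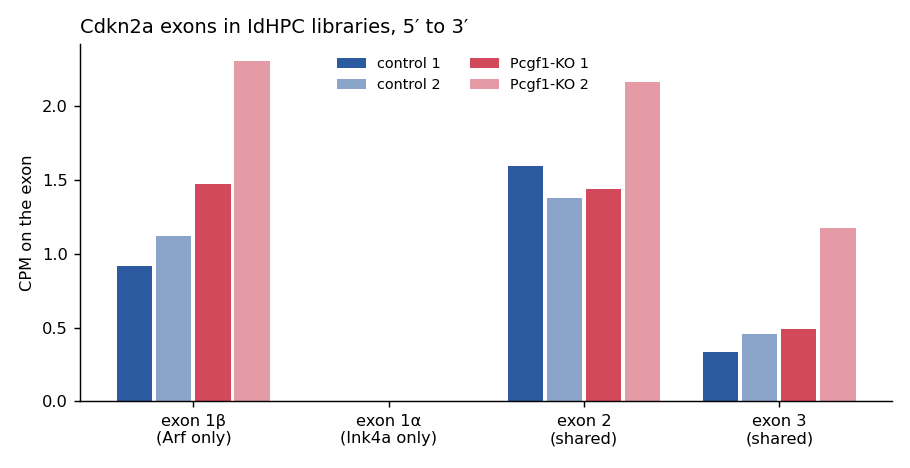
CPM on each distinct exon of *Cdkn2a* in the 4 IdHPC libraries, 1 bar per library, with exons in order from the 5′ end and blue for control and red for *Pcgf1*-KO. Exon 1β has between 30 and 49 reads per library, and exon 1α has no bar because it has 0 reads in each.

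Each Rb family gene was lower in both *Pcgf1*-KO IdHPC libraries than in both controls, as were 21.3% of all genes tested. No Rb family gene passed the test after adjustment. *Rb1*, whose product binds the activating E2F factors, stood at 21.4 and 32.4 CPM in controls 1 and 2, and at 17.2 and 12.3 CPM in *Pcgf1*-KO 1 and 2. Its log2 fold change was -0.81 (SE 0.29, 95% interval -1.45 to -0.17), with an unadjusted p of 0.0177 and an adjusted p of 0.230 in limma. *Rbl1* encodes p107, itself made mainly in cycling cells. It stood at 38.9 and 36.1 CPM in controls 1 and 2, and at 33.0 and 22.7 CPM in *Pcgf1*-KO 1 and 2 (log2 fold change -0.44, SE 0.25, limma, adjusted p = 0.462). *Rbl2* encodes p130, the family member of resting cells and of the DREAM repressor complex. It stood at 44.4 and 57.8 CPM in controls 1 and 2, and at 42.3 and 31.7 CPM in *Pcgf1*-KO 1 and 2 (log2 fold change -0.46, SE 0.25, limma, adjusted p = 0.440). In all 3 genes *Pcgf1*-KO 2 was the lowest library. Beside these values, the sum of B cell markers was 81.6 CPM in control 1, 186.7 in control 2, 50.2 in *Pcgf1*-KO 1 and 77.7 in *Pcgf1*-KO 2, with *Ms4a1* at 0 in each library. Of the 5 tested, 4 had a log2 fold change below 0 (median -0.54), and *Blk* was called lower (-4.13, limma, adjusted p = 0.0139). The part of B lineage cells in the level of the Rb family genes was not tested.

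The differences were uneven along these genes in *Pcgf1*-KO 2, the library with more reads at 3′ ends. *Rb1* exon 1 had 58 and 62 reads in the controls, 33 in *Pcgf1*-KO 1 and 5 in *Pcgf1*-KO 2, and *Rb1* exon 2 had 35, 50, 14 and 0 reads. In *Pcgf1*-KO 2 the CPM of the exons in the 5′ part of *Rb1* (13 of 27 exons) had a median ratio of 0.20 to the mean of the controls, those in the 3′ part had one of 0.29, and the last exon had a ratio of 1.11. The corresponding ratios of *Rbl2* were 0.22 for the 5′ part, 0.61 for the 3′ part and 1.06 for the last exon, and those of *Rbl1* were 0.49, 0.47 and 0.89. In *Rbl1* the 5′ and the 3′ part were about as low. Of the exons in *Pcgf1*-KO 2, 24 of 27 in *Rb1*, 19 of 23 in *Rbl1* and 19 of 22 in *Rbl2* lay below both controls, beside 63.4% of the 52828 exons with reads in tested genes of 20 or more exons. In *Pcgf1*-KO 1 these were 18, 12 and 10, beside 38.1% of the same exons. The ratios of *Pcgf1*-KO 1 were 0.65 for the 5′ part, 0.52 for the 3′ part and 0.71 for the last exon in *Rb1*, 0.92, 0.85 and 0.69 in *Rbl1*, and 0.83, 0.95 and 0.78 in *Rbl2*. The last exon held 57.6% of the *Rb1* reads of *Pcgf1*-KO 2, against 23.2% to 26.6% in the other 3 libraries, and 45.1% of its *Rbl2* reads, against 25.0% to 27.7%. In *Rbl1*, exons 13 and 14 of *Pcgf1*-KO 2 had 1.93 and 3.06 CPM, no lower than the 1.93 and 2.57 CPM of control 1, and exon 15 had 0.282 CPM against 0.735 and 0.688 CPM in the controls.

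Counted on the last exon alone, the log2 fold changes were -0.12 for *Rb1*, -0.30 for *Rbl1* and -0.11 for *Rbl2*, and without the last exon they were -1.19, -0.48 and -0.64. Without *Pcgf1*-KO 2 they were -0.59, -0.18 and -0.25 over all exons, without *Pcgf1*-KO 1 they were -1.04, -0.70 and -0.66, and without *Pcgf1*-KO 2 the adjusted p of *Rb1* in limma was 0.418. Without control 2, the library with the highest *Rb1* level, the log2 fold change of *Rb1* was -0.52. The share of reads on the last exon was highest in *Pcgf1*-KO 2 in each of the 7 genes tested, for example *Cdkn1a* (70.7%, against 57.5% to 60.7%) and *Cdkn1b* (44.9%, against 27.1% to 35.0%). The part of read position in the lower values of this library was not tested.

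**Figure D4:**
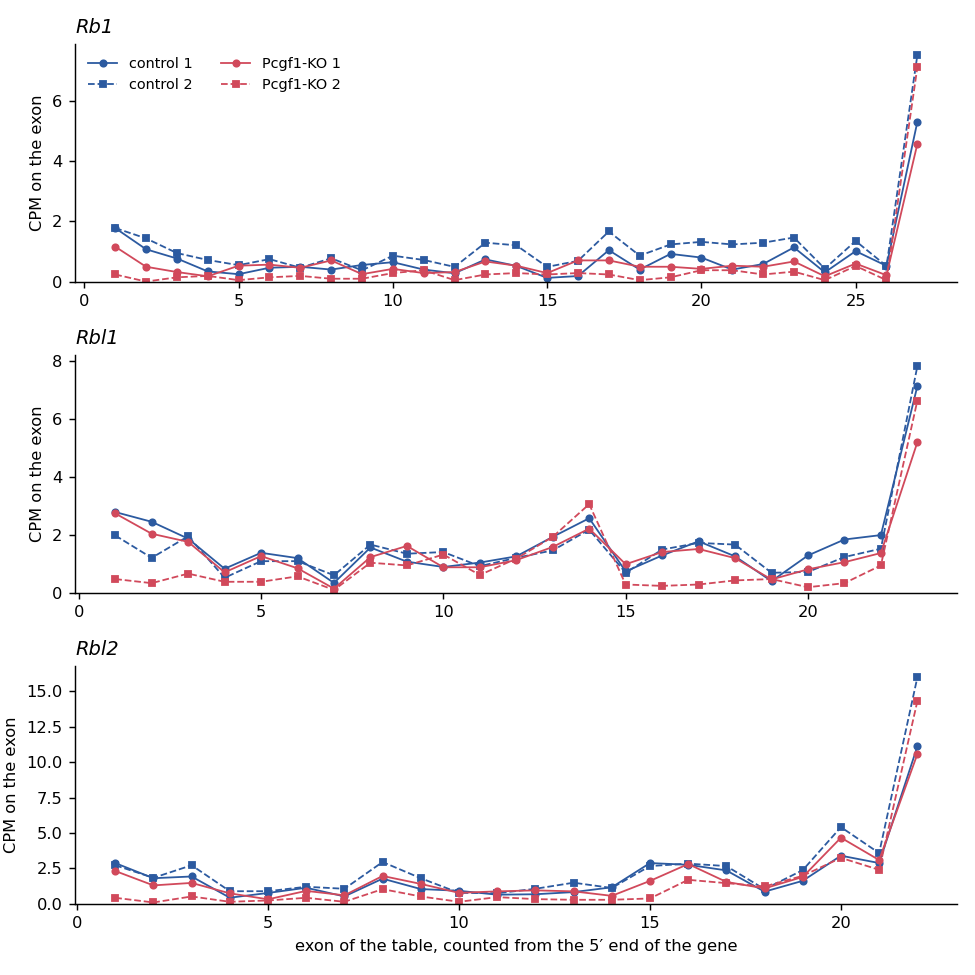
CPM on each distinct exon of *Rb1*, *Rbl1* and *Rbl2* in the 4 IdHPC libraries, with exons counted from the 5′ end on the horizontal axis, blue for control, red for *Pcgf1*-KO, solid lines for replicate 1 and dashed lines for replicate 2. *Pcgf1*-KO 2 runs below both controls over most 5′ exons (5 reads on *Rb1* exon 1, against 58 and 62) and on the last exon lies below both only in *Rbl1*, with a ratio of 0.89 to their mean.

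Among the partners of these genes in the cell cycle, *Ccnd1*, the cyclin D1 gene, was the only one called by limma. It rose in *Pcgf1*-KO IdHPCs (control 14.2 and 10.5 CPM, *Pcgf1*-KO 46.9 and 36.3 CPM), by 1.67 on the log2 scale (SE 0.26, limma, adjusted p = 0.0294). Its limma call was lost without control 2 (log2 fold change 1.48, adjusted p = 0.230), with no filter (adjusted p = 0.477), without the most 3′ exon (1.24, adjusted p = 0.605) and on that exon alone (1.76, adjusted p = 0.207), and its adjusted p lay between 1.4e-06 and 0.0458 under the other alternatives. The stromal marker sum was higher in the same libraries, as given above, and the part of feeder RNA in the level of *Ccnd1* was not tested. Of the 10 cyclins and Cdks of G1 and S phase, 1 was thus called higher and 0 lower, with a median log2 fold change of -0.15. *Cdk4*, the partner of the D-type cyclins, stood at 365 and 299 CPM in controls 1 and 2, and at 435 and 498 CPM in *Pcgf1*-KO 1 and 2 (log2 fold change 0.49, limma, adjusted p = 0.329). *Ccnd2*, for cyclin D2, stood at 350 and 472 CPM in controls 1 and 2, and at 310 and 296 CPM in *Pcgf1*-KO 1 and 2 (-0.42, limma, adjusted p = 0.420).

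None of the 10 E2F and DP factors and none of the 6 genes of MuvB was called in either direction, with median log2 fold changes of -0.31 and -0.19. The 6 genes are those of 5 subunits of MuvB, the core of the DREAM complex, and *Mybl2*, for B-Myb, which binds MuvB outside DREAM. In these lists and in the other lists without a call below, except that of p53, limma gave 0 genes at an unadjusted p under 0.05, and edgeR's quasi-likelihood test, edgeR's exactTest and DESeq2 called 0 after adjustment. *E2f8*, a repressor of the E2F family, had 22.1 and 18.7 CPM in control and 18.1 and 10.5 CPM in *Pcgf1*-KO IdHPCs, and *Tfdp1*, a DP partner of E2Fs, had 202 and 153 against 173 and 91.0 CPM. *E2f6*, an E2F that works with Polycomb proteins, had 29.9 and 30.8 against 24.1 and 20.6 CPM. Of MuvB, *Lin9* had 16.6 and 19.5 against 16.9 and 8.19 CPM, *Lin54* 13.1 and 12.8 against 12.5 and 6.07 CPM, and *Lin52* 7.65 and 8.51 against 7.48 and 4.89 CPM. In each of these 6 genes *Pcgf1*-KO 2 was the lowest library. Of the 17 genes that E2F activates, 0 were called and the median log2 fold change was -0.05, with 7 values above 0 and 10 below. *Tk1*, for thymidine kinase, had 34.6 and 25.9 against 38.0 and 43.9 CPM, *Tyms*, for thymidylate synthase, 25.7 and 17.6 against 25.1 and 33.5 CPM, and *Top2a*, for topoisomerase 2, 483 and 503 against 396 and 380 CPM.

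The list of p53 and its targets, in which *Cdkn1a* is not counted, held 12 genes with 0 calls by limma, 4 at an unadjusted p under 0.05 (*Bax*, *Bbc3*, *Gadd45a* and *Phlda3*, each higher in *Pcgf1*-KO, as 9.17% of all genes tested were at this p), a median log2 fold change of 0.30 and 10 values above 0. *Phlda3*, an Akt inhibitor, came nearest to the threshold. It had 48.8 and 37.7 CPM in control and 93.4 and 100.4 CPM in *Pcgf1*-KO IdHPCs (log2 fold change 1.16, SE 0.23, limma, adjusted p = 0.0570). It was the 1 gene of this list that edgeR's quasi-likelihood test (adjusted p = 0.0440), edgeR's exactTest (0.00077) and DESeq2 (0.00094) called, and over all alternatives its adjusted p ran from 0.00077 to 0.655, the highest without control 2. Stromal markers were higher in the same libraries, with the values given beside *Cdkn1a*, and their part in the level of the p53 targets was not tested. *Gadd45a*, a DNA damage response gene, had 4.62 and 4.36 against 10.7 and 7.81 CPM (limma, adjusted p = 0.182), and the apoptosis gene *Bax* had 94.8 and 64.2 against 112 and 144 CPM (limma, adjusted p = 0.235). Of 7 genes that govern the turnover and transcription of p27, 0 were called (median 0.06). *Foxo3*, which activates *Cdkn1b*, had 36.6 and 37.2 against 34.2 and 12.8 CPM. *Cks1b*, a cofactor of p27 degradation, had 52.4 and 39.8 against 58.6 and 64.3 CPM, and *Foxo1* had 6.52 and 13.2 against 11.9 and 11.8 CPM. Of 7 genes of the TGF-beta pathway, which induces *Cdkn2b*, 0 were called (median -0.15). Its receptor gene *Tgfbr1* had 37.5 and 34.8 against 38.7 and 21.5 CPM, its inhibitor gene *Smad7* had 29.1 and 44.5 against 30.2 and 32.0 CPM, and *Smad2* had 40.0 and 39.9 against 40.0 and 30.5 CPM.

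In LMPPs each labelled group held 1 library with and 1 without reads on *Pcgf1* exons 2 to 7, so the comparison by label does not answer the question for primary cells and is given only as the labels set it. In these libraries 8 of the 10 genes passed the filter. *Cdkn1c* passed it only through the libraries labelled control 2 and *Pcgf1*-KO 2. By label 0 of the 8 were called between *Pcgf1*-KO and control, and limma called 0.0% of the 12153 genes tested (the adjusted p was 0.99997 for each of the 8). At an unadjusted p under 0.05 limma gave 0 of the 8, and 2 (0.0165%) of all genes tested, and edgeR's quasi-likelihood test, edgeR's exactTest and DESeq2 called 0 genes after adjustment. The log2 fold changes of the 8 genes lay between -0.15 for *Cdkn2d* and 0.09 for *Cdkn1a*, with a median of -0.07 beside -0.00075 over all genes tested. By label *Cdkn2d* and *Rb1* were lower in both libraries labelled *Pcgf1*-KO, which holds for 6.3% of all genes tested, and 0 of the 8 were higher in both, which holds for 5.92%. The 7 lists of partners had 0 calls in LMPPs by each of these tools, and 0 genes at an unadjusted p under 0.05.

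Described singly, the LMPP libraries differed in the CIP/KIP genes along the reads of *Pcgf1* exons 2 to 7. This order comes from measured reads and not from a label, so no mean, error or p is given for it. It coincides with the replicate number, since both replicate 1 libraries hold such reads and both replicate 2 libraries hold none. Presence of these reads and replicate number therefore cannot be told apart. *Cdkn1a* had 168 CPM in labelled control 1 and 171 CPM in labelled *Pcgf1*-KO 1, the libraries that hold such reads. It had 77.3 CPM in labelled control 2 and 86.4 CPM in labelled *Pcgf1*-KO 2, which hold none. The 2 libraries without these reads were lower in every pair, by a difference in log2(CPM + 1) between -1.14 and -0.95. *Cdkn1b* ran the other way, at 39.4 and 38.5 CPM where these reads were found (labelled control 1 and *Pcgf1*-KO 1) and 72.2 and 65.7 CPM where they were not (labelled control 2 and *Pcgf1*-KO 2). Its differences over the pairs lay between 0.72 and 0.89. *Cdkn1c* had 0.958 and 0.824 CPM in the libraries with these reads and 2.65 and 2.35 CPM in those without, with differences between 0.77 and 1.0. These values rest on 13, 12, 46 and 31 reads.

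The differences of *Cdkn1a* and *Cdkn1b* exceeded 1.5-fold in every pair, and their directions at that size were found in 2.76% and 4.53% of all genes tested. The difference of *Cdkn1c* did so too, but the gene passed the filter through the libraries where it is high and is not read against that share. On its last exon alone the difference lay between 0.20 and 0.36. That exon had 0, 1, 5 and 3 reads in labelled control 1, *Pcgf1*-KO 1, control 2 and *Pcgf1*-KO 2. Without a minimum size, 29.9% of all genes were lower and 26.7% were higher in both libraries without the reads. *Cdkn2c*, with 12.6, 13.5, 12.4 and 12.1 CPM in the libraries labelled control 1, *Pcgf1*-KO 1, control 2 and *Pcgf1*-KO 2, was lower in both by a difference between -0.15 and -0.02, and overlapped both without its last exon and on that exon alone. *Rbl1*, with 78.7, 83.3, 73.3 and 64.0 CPM in the same libraries, was lower in both by a difference between -0.37 and -0.10. *Rb1* (45.5, 44.8, 46.6 and 40.3 CPM), *Rbl2* (78.7, 85.0, 88.6 and 79.9 CPM) and *Cdkn2d* (2.29, 1.72, 1.73 and 1.67 CPM) overlapped. *Cdkn2d* was higher in both when its last exon was left out, and lower in both on that exon alone. Outside its last exon, however, *Cdkn2d* had at most 3 reads on any exon in any LMPP library. *Cdkn2a* had 1 read in labelled control 2, 2 in labelled *Pcgf1*-KO 2, and 0 in the others. *Cdkn2b* had 1 read in labelled control 2, 2 in labelled *Pcgf1*-KO 1 and 0 in the others.

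**Figure D5:**
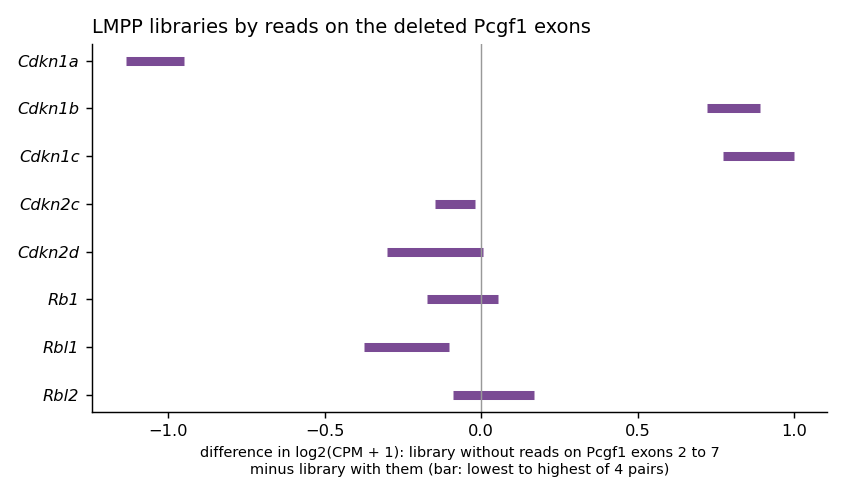
Differences in log2(CPM + 1) between LMPP libraries without reads on *Pcgf1* exons 2 to 7 (labelled control 2 and *Pcgf1*-KO 2) and libraries with them (labelled control 1 and *Pcgf1*-KO 1). Each bar runs from the lowest to the highest of the 4 pairs; the bars of *Cdkn1a* (-1.14 to -0.95), *Cdkn1b* (0.72 to 0.89) and *Cdkn1c* (0.77 to 1.0) lie farthest from 0.

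Of p53 and its targets, 11 of 12 were lower in both LMPP libraries without the *Pcgf1* reads, 8 of them by 1.5-fold or more in every pair, beside 29.9% and 2.76% of all genes tested. The exception was *Gadd45a*, which was higher in both. In labelled control 1 and *Pcgf1*-KO 1 *Phlda3* stood at 39.4 and 39.7 CPM, against 14.6 and 14.1 CPM in labelled control 2 and *Pcgf1*-KO 2. *Bax* stood at 154 and 142 CPM against 77.2 and 85.7 CPM in the same order. Of the cyclins and Cdks 7 of 10 were lower in both, 0 of them by 1.5-fold in every pair, and *Ccnd1* stood at 176 and 178 CPM against 129 and 123 CPM. Of the genes that E2F activates 8 of 17 were lower and 1, *Mki67*, was higher, 0 of them by 1.5-fold. The E2F and DP factors had 4 of 10 lower and 1 higher, MuvB with *Mybl2* 4 of 6 lower and 2 higher, p27 turnover 2 of 7 in each direction, and the TGF-beta pathway 4 of 7 higher, 1 of them by 1.5-fold, and 1 lower. Of the mature myeloid markers, 6 of the 8 tested were lower in both libraries without the reads, 3 of them by 1.5-fold in every pair, and the sum of all 12 was 2931, 2890, 2531 and 2636 CPM in the order of libraries given for *Cdkn2c*. Of 7 progenitor markers tested, 4 (*Flt3*, *Ly6a*, *Cd48* and *Il7r*) were lower, 2 of them by 1.5-fold, and 2 (*Kit* and *Cd34*) were higher, while of the erythroid markers 2 of 2 were higher, 1 by 1.5-fold, and of the stromal markers 2 of 6 were higher and 1 lower. The B cell marker *Blk* (1 of 2 tested, by 1.5-fold) and the T cell marker *Lck* (1 of 1) were lower. The part of cell composition in the levels of the CIP/KIP genes was not tested.

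The difference between the *Pcgf1*-KO and control groups was not tested between IdHPCs and LMPPs, whose tables were normalized apart. Values of *Cdkn1b* stand side by side as 29.5 and 22.5 CPM in *Pcgf1*-KO and 29.6 and 45.4 CPM in control IdHPCs, and as 72.2 and 65.7 CPM in the LMPP libraries without reads on *Pcgf1* exons 2 to 7 and 39.4 and 38.5 CPM in those with them.

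Genes whose level followed *Cdkn2a* or *Rb1* most closely were sought over the 8 libraries, with each table centered on its own mean, among 11242 genes that passed the filter in both tables. The nearest to *Cdkn2a* were *ORF19* (Pearson's r = 0.99), *Ccdc34* (0.99) and *Arl2* (0.99). The nearest to *Rb1* were *Pik3cg* (r = 0.997), *9930021J03Rik* (0.996) and *Ccdc77* (0.99). These are descriptions of 8 points that share library depth and read position, and *Cdkn2a* contributes at most 2 reads to each of its 4 LMPP points.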

How the data were processed

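RNA-seq of 8 libraries was analysed, 2 control and 2 *Pcgf1*-KO libraries of IdHPCs and of LMPPs, grouped by their labels. The authors isolated poly(A) RNA, aligned reads to mm9 with HISAT2 according to the methods (the submitters' processing notes name TopHat2), counted them with Rsubread and deposited CPM made with edgeR. The deposited CPM tables list 284716 exons under 23284 symbols, unfiltered, and an exon shared by transcripts is repeated. From these values, exons with the symbol and values, in all 8 libraries, of the exon before (58624 of 220394 with reads) were counted once and exons were summed per symbol. CPM kept the authors' denominator, which includes the repeats. All values (100%) were whole multiples of 1 read within 0.01 reads, which gave reads per exon. A read that spans exons probably stands on each of them, so read counts are not independent.

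The members and gene lists were chosen with earlier results of these data known. Each table was tested alone with limma (version 3.58.1, R 4.3.3) on log2(CPM + 1), 2 libraries against 2, with empirical Bayes moderation, a mean-variance trend and Benjamini-Hochberg adjustment at 0.05, over genes that reached a CPM of 1 in any library. Because of the pseudocount, fold changes of low genes come out too small. Named genes were the 10 members, *Pcgf1*, of each list those called and at most the 3 with the largest absolute log2 fold change in IdHPCs, and the 3 genes most correlated with *Cdkn2a* and with *Rb1*. *Flt3*, *Kit*, *Mki67*, *Bbc3*, *Mybl2* and the marker genes of cell types were named after their values were seen. LMPP libraries ordered by reads on *Pcgf1* exons 2 to 7 were described without a test, since that order is measured and not labelled. Lengths for CPM per kb were taken from the mm9 annotation, from the transcript with as many exons as the table or from the union of exons, and are approximate. Shares have Wilson intervals at 95%, and the floor is 3 reads.

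Beside the stromal markers, B cell markers summed to between 13.5 and 19.1 CPM in LMPPs, mature myeloid markers to between 2.78 and 9.02 CPM in IdHPCs, T cell markers to between 10.7 and 58.3 CPM and erythroid markers to between 1.99 and 7.19 CPM over all libraries, and progenitor markers to between 944 and 1791 CPM. Alternatives were other pseudocounts, filters and scalings, a replicate block, left-out libraries, other exon sums, and edgeR (version 4.0.16) and DESeq2 (version 1.42.0) on the recovered reads. Simulated counts were tested in which 200 of 12273 (IdHPC) or 12153 (LMPP) genes differed by 2 on the log2 scale. There limma recovered 200 and called 13 unchanged genes in each. The differing genes were drawn from the better expressed ones. The spread between simulated libraries was fixed beforehand and not taken from these data. Smaller differences, such as those of the members, were not simulated, so this does not show whether they would be found.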

Additional observations from a re-analysis of the deposited data

How the results depend on the processing

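In each of the alternatives run, 16 per cell type, 0 of the 10 genes were called in IdHPCs and 0 in LMPPs by label. The lowest adjusted p of a member in IdHPCs was 0.0648 (*Rb1*, limma without *Pcgf1*-KO 1). Of 112 log2 fold changes in IdHPCs under alternatives, 111 kept their direction, and *Cdkn2c* ran from -0.0062 without control 1 to 0.242 without control 2. The number of all genes called in IdHPCs (33 higher, 32 lower) was 3 and 1 with no filter, 59 and 45 with median ratio scaling, 77 and 47 with edgeR's quasi-likelihood test, 451 and 159 with edgeR's exactTest, 344 and 153 with DESeq2, and 19 and 25 over all listed exons, that is 4, 104, 124, 610, 497 and 44 in all. It was 0 without the 3′ exon and 0 on the 3′ exon alone (added after seeing the data), where fewer exons enter. Leaving out 1 library gave between 0 and 237 higher and between 14 and 581 lower, 14 to 818 in all (14 without control 2, 818 without *Pcgf1*-KO 1, 166 without *Pcgf1*-KO 2). The cause of these differences was not tested.

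Of 352 log2 fold changes of the named partner genes and *Pcgf1* in IdHPCs under alternatives, 6 changed sign, 9 passed the threshold where the reported value had not and 4 lost it, the last all of *Ccnd1*. Leaving out 1 library gave -0.144 (without control 1) to 0.771 for *Foxo1*, -0.377 to 0.00223 (without *Pcgf1*-KO 2) for *Smad2*, -0.502 to 0.0923 (without control 2) for *Smad7* and -0.721 to 0.0979 (without *Pcgf1*-KO 2) for *Tgfbr1*. *Foxo1* was -0.0577 without the 3′ exon and *Top2a* 0.136 on it alone. Of the 9, 6 were of *Phlda3*, and without *Pcgf1*-KO 1 *Foxo3* (-1.45) and *Tfdp1* (-0.94) were called lower. With 1 library left out its group is 1 library, assumed to vary like the other group, here *Pcgf1*-KO 2, which stands apart by read position.

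With the replicate number as a block, 484 genes were higher and 185 lower in IdHPCs (669 in all) and 3 higher in LMPPs by label, with 0 members called and *Pcgf1* itself called in IdHPCs (limma, adjusted p = 0.0264). Deviations of same-numbered libraries correlated by 0.15 over IdHPC and 0.71 over LMPP genes, and in LMPPs both replicate 1 libraries held reads on *Pcgf1* exons 2 to 7 (84 and 76) and both replicate 2 libraries held 0. With 2 pairs and no label of a shared origin, the design does not pair the libraries.

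By label in LMPPs, 114 of 128 log2 fold changes kept their direction. Leaving out 1 library gave ranges that crossed 0, from -0.46 to 0.65 for *Cdkn1a*, -0.51 to 0.34 for *Cdkn1b*, -0.56 to 0.34 for *Cdkn1c*, -0.0439 to 0.103 for *Cdkn2c*, -0.24 to 0.13 for *Rbl1* and -0.103 to 0.0662 for *Rbl2*. On the 3′ exon alone *Cdkn1c* was 0.0131 and *Rbl1* 0.00067, and without it *Cdkn2c* was -0.0226 and *Rbl2* 0.0559. Over the LMPP libraries ordered by *Pcgf1* reads, *Cdkn1a*, *Cdkn1b* and *Cdkn1c* kept their direction in the 4 alternatives run for that order (median ratio scaling, all listed exons, without the 3′ exon and on it alone). The place of 5 of the 10 genes in the order of levels was the same by CPM without division by length, in IdHPCs and in LMPPs. Depth limits the genes of few reads, *Cdkn1c*, *Cdkn2a*, *Cdkn2b* and *Cdkn2d*.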
